A study of Homo sapiens with 12 samples.

Results

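NR4A1, NR4A2, NR4A3, FOS, FOSB, FOSL1, JUN, JUNB, EGR1 and PTGS2 are immediate early genes, and they are 10 of the 58735 genes in the expression table. They were picked by name because NR4A1 and PTGS2 were lower in the treated than in the untreated libraries labelled COV434, so their values in that comparison chose them and are given as a description, with no test. RNA sequencing covered 12 libraries in 4 groups of 3, from 2 human ovarian granulosa cell tumor lines of wild-type genotype by their labels: KGN, of the adult type, and COV434, of the juvenile type. In each line, untreated cells were compared with cells given 77-39, an inhibitor of the mitochondrial deacetylase SIRT3, at 10 µm/ml (the unit as written in the labels) for 72 h. The labels give the medium as DMEM/F-12 without phenol red and the study's methods as DMEM, both with serum. Nothing in the labels says whether replicates came from separate cultures, so p-values measure only the spread between these libraries, which may be technical.

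Immediate early genes are transcribed within minutes of a stimulus, without new protein synthesis, through factors that already sit in the cell, such as CREB, SRF with its ELK partners, and NF-κB. Most of their mRNAs are short-lived. NR4A1, NR4A2 and NR4A3 are orphan nuclear receptors that bind DNA without a known hormone, and in granulosa cells they are known for their induction by gonadotropins. FOS, FOSB and FOSL1 pair with JUN or JUNB to form AP-1, EGR1 is a zinc finger factor, and PTGS2 is the inducible cyclooxygenase that makes prostaglandins, known in the ovary for its role in ovulation.

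The libraries held 15547851 to 18280415 reads on genes, recovered from the deposited FPKM (fragments scaled to the length of the gene and the size of the library). Mitochondrially encoded genes gave 7.3% to 8.81% of all reads under the KGN label and 7.71% to 13.5% under the COV434 label, with treated replicate 1 of the latter at the top. The marker genes of the lines went against the labels. KGN cells are known to express FOXL2, the granulosa cell factor, and COV434 cells are known to lack the chromatin remodelers SMARCA4 and SMARCA2. FOXL2 had 0 or 1 read in each library labelled KGN and stood at 11.5 to 14.0 FPKM in those labelled COV434. SMARCA2 was at 0.00296 to 0.00870 FPKM in the libraries labelled KGN and 4.51 to 6.48 FPKM in those labelled COV434, and SMARCA4 at 2.25 to 2.60 against 6.51 to 12.6 FPKM. Of 12 granulosa cell markers, 3 in untreated KGN, 2 in treated KGN and 4 in each COV434 group had a mean of at least 1 FPKM. Their summed level was 51.7 to 67.6 FPKM in the libraries labelled KGN, mostly WT1 (45.9 to 61.4 FPKM), and 29.4 to 34.3 FPKM in those labelled COV434, where WT1 had 0 reads in all 6, against a limit of 3 reads per library for a count of 0. The 10 markers of other cells summed to 23.0 to 30.2 FPKM under the KGN label and to 427 to 563 FPKM under the COV434 label, where keratin KRT7 alone gave 400.4 to 541 FPKM. At an unadjusted p under 0.05 (limma), 3007 genes were higher and 2736 lower with 77-39 under the KGN label, and 424 and 541 under the COV434 label. The study, by its own method and at a p-value under 0.05, reported the reverse order, with more changed genes in COV434 than in KGN. Whether the names of the lines were exchanged was not tested, all 12 libraries are concerned, and each line is therefore called by its label. SIRT3 itself, whose protein and not its mRNA is the target of 77-39, was at 3.36 to 4.95 FPKM over all libraries.

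RefSeq promoter windows (GRCh38.p14) were found for 8 of the 10 genes, with none for NR4A2 and FOSL1. The CRE core TGACG, to which CREB and ATF factors bind, lay on either strand within 250 bases before the start in 7 of these 8 genes: NR4A3, FOS, FOSB, JUN, JUNB, EGR1 and PTGS2. It lay in 21.2% of all 35116 windows. Neither of the windows of NR4A1 held it, and both sit at upstream starts of that gene. The sequences of 5 of the genes that were lower under the COV434 label are given 5′ to 3′ on the gene's strand, each as 150 bases that end before both the RefSeq and the GENCODE start. Capitals mark the CRE core (TGACG, or CGTCA where it lies on the opposite strand), the TATA box TATAAA and the CArG box, the site of SRF. They come from chr9:99821705-99821854 (plus strand), chr14:75278624-75278773 (plus), chr19:12791336-12791485 (plus), chr5:138465329-138465478 (plus) and chr1:186680428-186680577 (minus).
NR4A3: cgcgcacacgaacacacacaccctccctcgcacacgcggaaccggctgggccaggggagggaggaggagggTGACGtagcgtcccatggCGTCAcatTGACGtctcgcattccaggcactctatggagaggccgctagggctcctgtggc
FOS: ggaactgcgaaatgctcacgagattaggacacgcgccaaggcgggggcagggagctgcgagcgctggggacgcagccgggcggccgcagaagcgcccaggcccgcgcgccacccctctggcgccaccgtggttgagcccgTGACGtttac
JUNB: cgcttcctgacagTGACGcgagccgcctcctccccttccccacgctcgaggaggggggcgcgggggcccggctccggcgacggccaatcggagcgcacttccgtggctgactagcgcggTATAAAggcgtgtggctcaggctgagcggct
EGR1: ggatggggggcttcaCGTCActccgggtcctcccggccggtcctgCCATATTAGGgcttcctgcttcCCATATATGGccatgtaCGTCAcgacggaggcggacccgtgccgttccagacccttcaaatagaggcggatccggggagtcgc
PTGS2: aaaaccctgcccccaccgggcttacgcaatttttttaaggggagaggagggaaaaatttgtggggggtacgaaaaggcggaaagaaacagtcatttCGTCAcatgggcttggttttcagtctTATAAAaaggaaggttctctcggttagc
NR4A3 held 4 cores in the searched window, of which 3 lie in the stretch above, and EGR1 held 2, both on the opposite strand. Within the 250 bases searched, the CArG box occurred in EGR1 alone of the 8 members with a window, 105 and 83 bases before its start. It lay in 1.16% of all windows, and sites farther upstream were not searched. A TATA box stood 30 to 33 bases before the start of FOS, FOSB, JUNB and PTGS2, and in 10.7% of all windows, and that of FOS falls after the printed stretch. The GC box GGGCGG was in windows of NR4A1, FOS, FOSB and JUN (42.6% of all windows). No window of a member held the full CRE TGACGTCA, the AP-1 site TGANTCA, the NR4A response element AAAGGTCA, the E-box CACGTG or the κB site, which lay in 1.65%, 6.57%, 1.05%, 6.34% and 9.96% of all windows. A match is only a description of these letters.

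In the libraries labelled KGN, JUN and PTGS2 rose with 77-39 and JUNB fell. These were 2 genes higher and 1 lower of the 5 members that averaged 1 FPKM or more in both groups (limma on log2(FPKM + 1), Benjamini-Hochberg adjusted p under 0.05). Of all 12671 genes tested, 17.6% were called higher and 16.4% lower, so calls were common under this label. A lack of overlap between treated and untreated libraries was common as well, with 3336 of these genes higher and 2965 lower. NR4A2 and EGR1 were tested and not called, and NR4A1, FOS, FOSB and FOSL1 were below the filter. NR4A3 passed the filter only through its treated libraries and is not counted. In the libraries labelled COV434, 7 of the 10 genes were lower in every treated library than in every untreated one (NR4A1, NR4A2, NR4A3, FOS, JUNB, EGR1 and PTGS2), 1 was higher (FOSL1), and JUN and FOSB overlapped. Over the 12060 genes that averaged 1 FPKM or more under this label, 8.16% were lower and 6.23% higher with no overlap. The rule used this comparison, so nothing is read from the member count. Without treated replicate 1, the library with the highest mitochondrial share, 7 were lower and 1 higher. In bulk RNA, fewer cells that express a gene and less of its RNA per cell cannot be told apart.

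**Figure D1:**
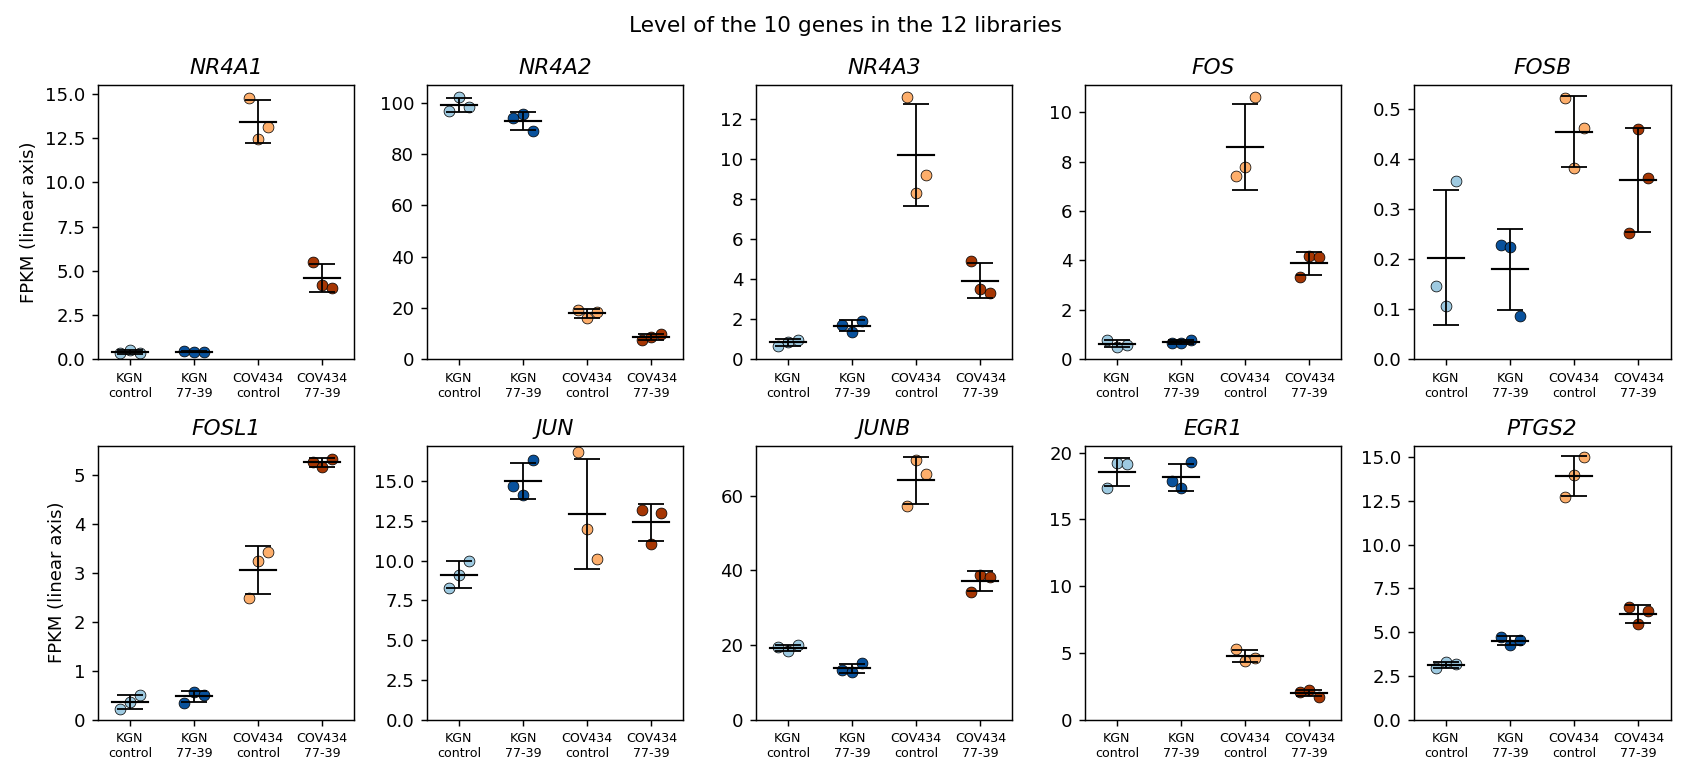
FPKM (linear axes that start at 0) of each of the 10 genes in the 3 libraries of each group, with points for libraries, horizontal lines for means and bars for 1 SD. NR4A1, FOS, FOSB and FOSL1 lie below 1 FPKM in all libraries labelled KGN, and the treated libraries labelled COV434 lie below the untreated ones for 7 genes and above them for FOSL1.

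NR4A1 (chromosome 12, 52022832 to 52059507, plus strand, ENSG00000123358) encodes the receptor also called Nur77. Under the KGN label it was at 0.340, 0.514 and 0.313 FPKM in untreated and 0.431, 0.389 and 0.385 FPKM in treated libraries, from 45 to 64 reads each. These groups overlapped, at a depth that leaves small changes undetectable. In the libraries labelled COV434 it was at 14.8, 12.4 and 13.1 FPKM in untreated and 5.51, 4.18 and 4.05 FPKM in treated libraries. The treated mean was 0.341 times the untreated mean, a difference of -1.38 on the log2(FPKM + 1) scale, the largest in size among the members. The fall of NR4A1 in these libraries was part of the rule, so nothing is read from this rank. Among untreated libraries, the mean under the COV434 label was 34.6 times that under the KGN label. A lincRNA on the opposite strand, AC025259.3, overlaps NR4A1, and had at most 4 reads in any library.

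NR4A2 (chromosome 2, 156324432 to 156342348, minus strand, ENSG00000153234), or Nurr1, had the reverse order between the lines. It was at 96.8, 102 and 98.6 FPKM in untreated and 94.1, 95.8 and 89.0 FPKM in treated libraries labelled KGN. The treated libraries were all below the untreated ones, but the log2 difference was -0.09 (SE 0.05) and did not pass the test (limma adjusted p = 0.186). With the COV434 label it was at 19.3, 16.1 and 18.2 FPKM in untreated and 7.54, 8.77 and 9.61 FPKM in treated libraries, 0.484 times the untreated mean.

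NR4A3 (chromosome 9, 99821855 to 99866891, plus strand, ENSG00000119508), or NOR-1, was at 0.658, 0.862 and 0.966 FPKM in untreated and 1.72, 1.38 and 1.89 FPKM in treated libraries labelled KGN. All treated libraries were above all untreated ones, and the ratio of the FPKM means was 2.01. With a filter of 1 FPKM it would be tested only because of its treated libraries, so the fit with a filter at 0.1 FPKM, which both groups pass, is given: a log2(FPKM + 1) difference of 0.54 (SE 0.11, limma adjusted p = 0.0203). At the filter of 1 FPKM, with all 12 libraries in 1 fit, the adjusted p by limma was 0.0679. Where the label was COV434, NR4A3 was at 13.1, 8.32 and 9.19 FPKM in untreated and 4.92, 3.51 and 3.30 FPKM in treated libraries, 0.384 times the untreated mean. The untreated replicate 1 stood highest there, and no treated library reached the lowest untreated one.

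The 3 receptors together came to 100.4 ± 2.97 FPKM in untreated and 95.0 ± 3.34 FPKM in treated libraries under the KGN label, and to 41.5 ± 5.27 and 17.1 ± 0.770 FPKM under the COV434 label (mean ± SD, n = 3). NR4A2 was 98.8% ± 0.165 of this sum in untreated libraries labelled KGN. In untreated libraries labelled COV434 the sum was split between NR4A2 (43.2% ± 2.01), NR4A1 (32.5% ± 1.22) and NR4A3 (24.3% ± 2.92). In the treated libraries of that label NR4A2 held 50.6% ± 7.70 and NR4A1 26.6% ± 3.57, with NR4A1 shares of 23.9% to 30.7% against 31.3% to 33.8% in untreated ones.

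**Figure D2:**
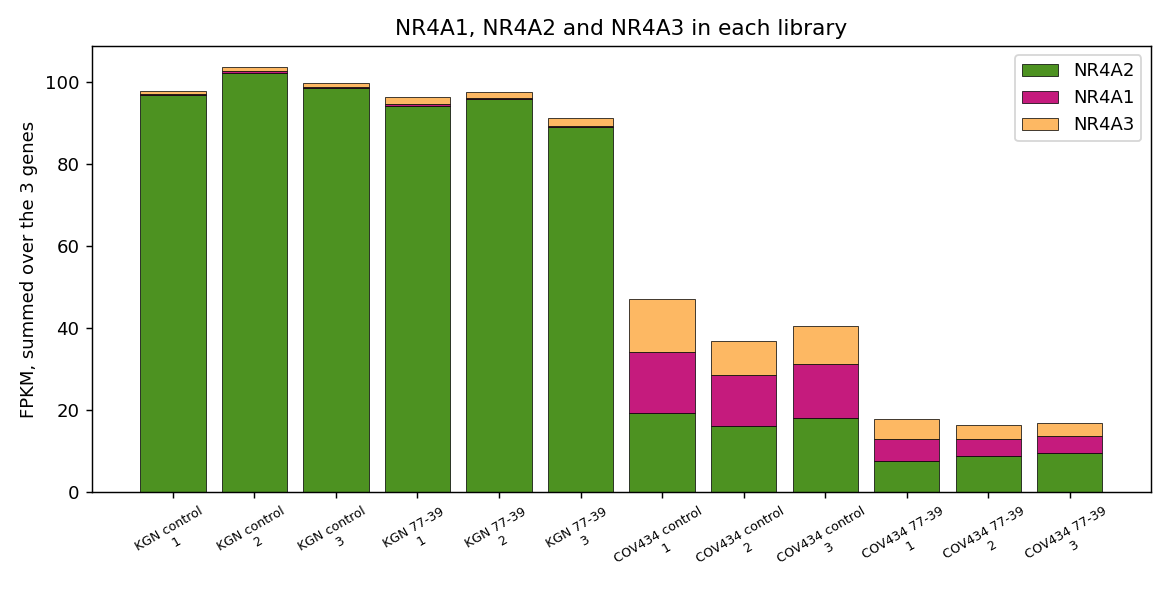
FPKM of NR4A2, NR4A1 and NR4A3, stacked, in each of the 12 libraries (1 bar each, linear axis from 0). The bars labelled KGN reach 91.2 to 104 FPKM and are almost wholly NR4A2, while the untreated bars labelled COV434 reach 36.8 to 47.2 FPKM with a visible part of each receptor, and the treated ones 16.5 to 18.0 FPKM.

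FOS (chromosome 14, 75278774 to 75282230, plus strand, ENSG00000170345), the first member of its family to appear after most stimuli, was at 0.783, 0.506 and 0.581 FPKM in untreated and 0.647, 0.666 and 0.776 FPKM in treated libraries labelled KGN, from 28 to 47 reads each. These groups overlapped. In COV434-labelled libraries it was at 7.42, 7.76 and 10.6 FPKM in untreated and 3.34, 4.18 and 4.13 FPKM in treated libraries. No treated library reached the lowest untreated one, and the treated mean was 0.452 times the untreated mean.

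FOSB (chromosome 19, 45467995 to 45475179, plus strand, ENSG00000125740) was the lowest of the 10 genes in mean level under both labels. It was at 0.146, 0.105 and 0.357 FPKM in untreated and 0.228, 0.225 and 0.0862 FPKM in treated libraries labelled KGN, from 8 to 39 reads each. Under the COV434 label it was at 0.522, 0.381 and 0.463 FPKM in untreated and 0.253, 0.461 and 0.363 FPKM in treated libraries. The groups overlapped under both labels. The DNA repair gene ERCC1, at up to 22.4 FPKM, overlaps FOSB on the opposite strand, and because the sources do not say whether counting used strand, reads of the overlap cannot be told apart.

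FOSL1 (chromosome 11, 65892049 to 65900573, minus strand, ENSG00000175592), or FRA1, lacks the activation domain of FOS and is known to accumulate later. Under the KGN label it was at 0.229, 0.372 and 0.512 FPKM in untreated and 0.350, 0.571 and 0.507 FPKM in treated libraries, from 8 to 19 reads each. In the libraries labelled COV434 it was at 2.49, 3.24 and 3.42 FPKM in untreated and 5.27, 5.16 and 5.33 FPKM in treated libraries, 1.72 times the untreated mean. It was the one member that was higher with no overlap under that label.

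FOS and FOSL1 thus stood on opposite sides of their untreated libraries. Of the summed FPKM of FOS, FOSB, FOSL1 and FOSL2 under the COV434 label, FOSL1 made up 5.73% ± 2.13 in untreated and 13.3% ± 1.199 in treated libraries, and FOS 15.9% ± 5.20 and 9.91% ± 2.04 (mean ± SD, n = 3). The FOSL1 shares did not overlap (3.36% to 7.46% against 12.3% to 14.6%), and those of FOS did (9.98% to 19.8% against 7.77% to 11.8%). FOSL2, which is not a member, held 72.2% to 86.0% of the sum in all 6 of these libraries, and its level of 63.9 FPKM in untreated replicate 1 stood above the 32.1 and 39.1 FPKM of the other untreated libraries.

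JUN (chromosome 1, 58780788 to 58784327, minus strand, ENSG00000177606), which can activate its own promoter, was at 8.29, 9.13 and 9.98 FPKM in untreated and 14.7, 14.1 and 16.3 FPKM in treated libraries labelled KGN. It rose by 0.66 (SE 0.08) on the log2(FPKM + 1) scale, 1.65 times the untreated mean (limma adjusted p = 0.00150), and all treated libraries lay above all untreated ones. With the COV434 label it was at 16.8, 11.96 and 10.1 FPKM in untreated and 13.2, 11.1 and 12.98 FPKM in treated libraries, and the groups overlapped.

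JUNB (chromosome 19, 12791496 to 12793315, plus strand, ENSG00000171223), which can oppose JUN in growth control, was at 19.4, 18.4 and 20.1 FPKM in untreated and 13.3, 12.9 and 15.2 FPKM in treated libraries labelled KGN. It fell by 0.46 (SE 0.07) on the log2 scale, to 0.715 times the untreated mean (limma adjusted p = 0.00347), with no overlap. Where the label was COV434, it was at 57.2, 69.5 and 65.8 FPKM in untreated and 34.1, 38.9 and 38.4 FPKM in treated libraries, 0.578 times the untreated mean. HOOK2, on the opposite strand at up to 3.07 FPKM, overlaps JUNB.

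Of the summed FPKM of JUN, JUNB and JUND under the KGN label, JUN made up 11.2% ± 2.10 in untreated and 18.2% ± 1.34 in treated libraries, and JUNB 23.6% ± 2.92 and 16.7% ± 1.02 (mean ± SD, n = 3). Neither pair of ranges overlapped, and JUNB was above JUN in each untreated library and below it in each treated one. JUND held 59.7% to 69.4% of the sum under the KGN label and 78.9% to 89.1% under the COV434 label.

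EGR1 (chromosome 5, 138465490 to 138469315, plus strand, ENSG00000120738), a zinc finger factor switched on through SRF and ELK proteins, was at 17.3, 19.2 and 19.2 FPKM in untreated and 17.9, 17.3 and 19.3 FPKM in treated libraries labelled KGN. The log2 difference was -0.03 (SE 0.06, limma adjusted p = 0.738) and the groups overlapped. In COV434-labelled libraries it was at 5.31, 4.42 and 4.61 FPKM in untreated and 2.04, 2.19 and 1.73 FPKM in treated libraries, 0.416 times the untreated mean. With NR4A2, it was 1 of the 2 members with less RNA in untreated libraries labelled COV434 than in untreated ones labelled KGN.

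PTGS2 (chromosome 1, 186671791 to 186680427, minus strand, ENSG00000073756), the inducible cyclooxygenase, was at 2.96, 3.28 and 3.20 FPKM in untreated and 4.73, 4.27 and 4.57 FPKM in treated libraries labelled KGN. It rose by 0.41 (SE 0.06) on the log2 scale, 1.44 times the untreated mean (limma adjusted p = 0.00292), with no overlap. Under the COV434 label it was at 12.7, 14.0 and 14.996 FPKM in untreated and 6.46, 5.48 and 6.20 FPKM in treated libraries, 0.435 times the untreated mean. Like NR4A3, it was thus higher with treatment under one label and lower under the other, without overlap in either.

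**Figure D3:**
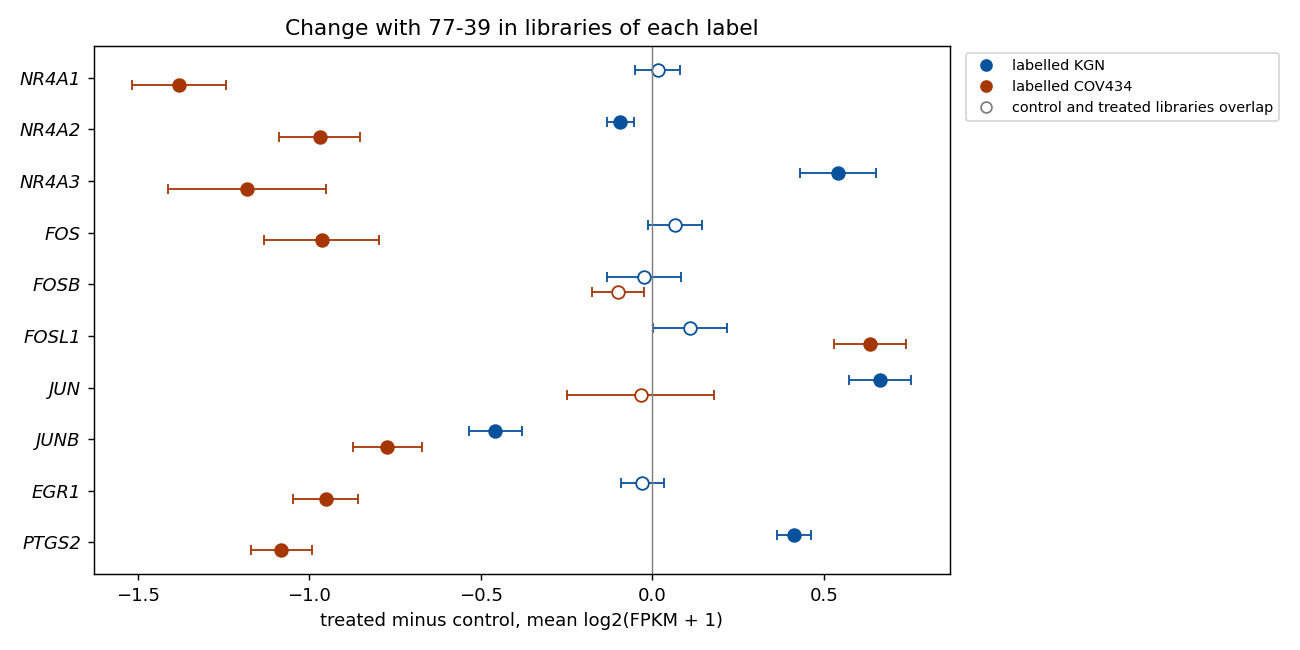
Treated minus untreated mean of log2(FPKM + 1) for each gene in libraries of each label (points), with the standard error from the spread of 3 against 3 libraries (bars). Open points mark genes whose treated and untreated libraries overlap. NR4A3 (0.54 and -1.18) and PTGS2 (0.41 and -1.08) lie on opposite sides of 0, and JUNB (-0.46 and -0.77) lies below 0 under both labels.

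Before treatment, members differed between the lines, as most tested genes did. Untreated libraries labelled COV434 and KGN were compared for the 8 members other than NR4A1 and PTGS2. These are the same untreated COV434 libraries whose comparison with treated ones chose the genes. FOSB was below the filter. Of the 4 that averaged 1 FPKM or more in both groups, JUNB was higher under the COV434 label (by 1.68, SE 0.10, on the log2(FPKM + 1) scale, limma adjusted p = 1.13e-05), and NR4A2 (-2.41, SE 0.10, limma adjusted p = 1.52e-06) and EGR1 (-1.76, SE 0.09, limma adjusted p = 5.44e-06) were lower. Of 13098 genes tested, 36.4% were higher and 32.6% lower under the COV434 label, so a difference between the lines was the rule among expressed genes. JUN differed by 0.44 (SE 0.18) and was not called (limma adjusted p = 0.0673). NR4A3, FOS and FOSL1 averaged 0.829, 0.623 and 0.371 FPKM in untreated libraries labelled KGN and passed the filter of 1 FPKM only through those labelled COV434. With a filter at 0.1 FPKM, which both groups pass, they were higher under the COV434 label by 2.59 (SE 0.17), 2.55 (SE 0.15) and 1.56 (SE 0.13), with limma adjusted p of 3.61e-05, 1.97e-05 and 0.000105. PTGS2, given as a description, was 4.42 times as high under the COV434 label.

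Ordered by mean level, NR4A1, FOS, JUNB and PTGS2 ran from untreated to treated COV434 and then to the KGN groups. For NR4A1 and FOS the KGN groups overlapped at the bottom, and for PTGS2 treated KGN libraries lay above untreated ones and below all treated COV434 libraries. NR4A3 had that same order, with no overlap between neighbours. FOSL1 had treated COV434 first and untreated COV434 next, with overlapping KGN groups at the bottom. For NR4A2 and EGR1 the KGN groups came first and treated COV434 last, and the KGN groups of EGR1 overlapped while those of NR4A2 did not pass the test. The JUN libraries of treated KGN, untreated COV434 and treated COV434 overlapped as neighbours, and only untreated KGN lay apart below. For FOSB each pair of neighbours overlapped.

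Over the 12 libraries, the genes whose log2(FPKM + 1) followed NR4A1 most closely, of 13126 that averaged 1 FPKM or more, were SNRNP48 (Pearson r = 0.995), RHOB (0.994), MUC13 (0.993), SLC6A12 (0.992) and PCSK1 (0.992). SNRNP48 encodes a protein of the minor spliceosome, RHOB a small GTPase that is itself induced early by growth factors, MUC13 a mucin, SLC6A12 a betaine and GABA transporter, and PCSK1 a prohormone convertase. RHOB was at 53.0 to 65.6 FPKM in the libraries labelled KGN, 311 to 335 FPKM in untreated and 153 to 167 FPKM in treated libraries labelled COV434. MUC13 had no reads under the KGN label. Among the members, FOS followed NR4A1 most closely (r = 0.984, position 38), then NR4A3 (0.968), JUNB (0.965), PTGS2 (0.939) and FOSL1 (0.820), while EGR1 (-0.79) and NR4A2 (-0.83) ran against it. The 12 points fall into 2 clusters by line and share line and library, so these correlations are a description without a test.

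Around these genes, 106 further genes were set out in 5 lists. The lists were chosen with earlier results of these data known, so the shares called in them are a description. Under the KGN label 75 of them were tested, and 16 rose (21.3%) and 13 fell (17.3%) at a limma adjusted p under 0.05, near the 17.6% and 16.4% of all genes. Their median log2 change was 0.06, beside 0.01 over all genes. With all 12 libraries in 1 fit, where the spread is estimated over both lines, limma called 10 higher and 0 lower (17 and 7 at an unadjusted p under 0.05). In the libraries labelled COV434, 81 were tested and 0 were called by limma at an adjusted p under 0.05, beside 0.0415% of all 12060 genes. At an unadjusted p under 0.05, the threshold used by the study, 4 were higher and 13 lower, beside 3.52% and 4.49% of all genes, and voom on recovered reads called 1 (BTG2). The labels give no pairing of COV434 libraries, and a pairing by replicate number was inferred from these same data, least clearly for replicate 3. With the replicate as a block on that assumption, 1 was called higher (BTG2) and 3 lower (NFIL3, BHLHE40 and DUSP1), beside 0.721% of all genes.

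The AP-1 partners are the proteins with which FOS and JUN pair or compete. Of 12, 9 were tested under the KGN label, and 4 rose and 0 fell by limma, as by voom (5 and 0 by both at an unadjusted p under 0.05). The 4 are 44.4% of those tested, beside 17.6% of all genes higher and 16.4% lower by limma. Because the list was chosen with earlier results of these data known, no enrichment is read from this share. ATF3, a stress-induced repressor, rose most, by 1.55 (SE 0.04, limma adjusted p = 1.21e-05), from 8.33, 8.65 and 8.21 FPKM to 26.2, 27.0 and 26.2 FPKM. MAFF rose by 0.58 (SE 0.06, limma adjusted p = 0.00111) and MAFG by 0.40 (SE 0.05, limma adjusted p = 0.00129), both small MAF proteins without an activation domain of their own, and the fourth was JDP2, a repressor of AP-1. With the COV434 label, ATF3 was at 9.53, 10.0 and 10.7 FPKM in untreated and 6.79, 8.61 and 9.99 FPKM in treated libraries, which overlapped. The smallest p-values there were those of MAFK (-0.84, SE 0.18, limma adjusted p = 0.183), from 27.4 ± 6.39 to 14.7 ± 0.788 FPKM, and MAFG (0.35, SE 0.14, limma adjusted p = 0.579), neither of which passed. The list's median was 0.15 under the KGN label and -0.13 under the COV434 label, beside 0.01 and -0.02 over all genes.

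Among 36 other immediate early genes, 28 were tested under the KGN label, where 5 rose (17.9%) and 7 fell (25.0%). The first share is near that of all genes. KLF10, a Krüppel-like repressor, rose by 0.67 (SE 0.08, limma adjusted p = 0.00127), and PPP1R15A, which restores translation after stress, by 0.52 (SE 0.07, limma adjusted p = 0.00230). BTG2, an antiproliferative p53 target, rose by 0.38 (SE 0.06, limma adjusted p = 0.00312). RGS2, which switches off G protein signals, fell by 0.53 (SE 0.06, limma adjusted p = 0.000965), the clock gene PER1 by 0.32 (SE 0.07, limma adjusted p = 0.0121) and the kinase PLK2 by 0.24 (SE 0.05, limma adjusted p = 0.00764). With all 12 libraries in 1 fit, KLF10, BTG2, NFIL3 and CYR61 were called in this list.

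Where the label was COV434, 31 of these genes were tested and 0 were called by limma at an adjusted p under 0.05. Their median log2 difference was -0.19, beside -0.02 over all genes. BTG2 was at 7.09, 6.83 and 7.09 FPKM in untreated and 16.3, 15.04 and 19.6 FPKM in treated libraries, a difference of 1.16 (SE 0.15). Its limma adjusted p was 0.0660, and 0.0329 with the replicate block. NFIL3, a leucine zipper repressor, went from 26.8 ± 0.558 to 13.5 ± 1.23 FPKM (-0.94, SE 0.14, limma adjusted p = 0.0769, and 0.0369 with the block). BHLHE40, a clock and hypoxia repressor, went from 61.6 ± 6.95 to 35.0 ± 3.25 FPKM (-0.80, SE 0.16, limma adjusted p = 0.136, and 0.0393 with the block). DUSP1, the phosphatase that switches off p38 and JNK, was at 236, 233 and 241 FPKM in untreated and 147, 153 and 153 FPKM in treated libraries (-0.64, SE 0.15, limma adjusted p = 0.202, and 0.0475 with the block), and it is named here after its values were seen.

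**Figure D4:**
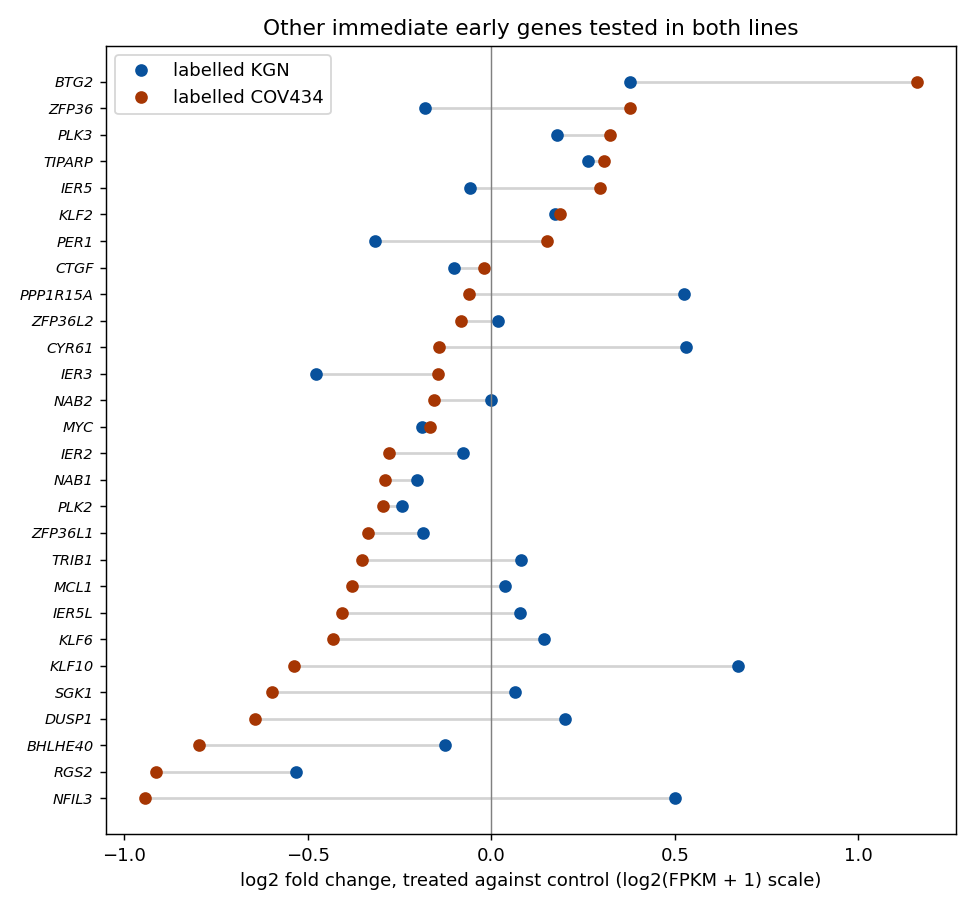
Log2 fold change (log2(FPKM + 1) scale) of each of the 28 other immediate early genes tested under both labels, with a blue point for libraries labelled KGN, a red one for COV434 and a grey line joining them. BTG2 lies at the top with 0.38 and 1.16, and NFIL3 at the bottom with 0.50 and -0.94.

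The difference between the lines in their response was tested for the listed genes, not for the members, in 1 fit of all 12 libraries. Of 82 listed genes tested, 10 differed (limma adjusted p under 0.05), beside 3.60% of all 13127 genes. As the lists were chosen with earlier results of these data known, this count is a description of them. In 9 of them the change was more positive under the KGN label, among them ATF3 (by 1.79, SE 0.16, limma adjusted p = 0.000377), NFIL3 (1.44, SE 0.13, limma adjusted p = 0.000492), KLF10 (1.21, SE 0.13, limma adjusted p = 0.00114) and MAFF (0.89, SE 0.13, limma adjusted p = 0.00506). BTG2 alone was more positive under the COV434 label (-0.78, SE 0.14, limma adjusted p = 0.0153), and it stayed past the threshold in 15 of 18 alternative settings.

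The ERK feedback genes report the MAP kinase pathway that lies above FOS and EGR1. Of 18, 12 were tested under the KGN label, and 4 rose (33.3%) and 2 fell (16.7%), with a list median of 0.21. Of all genes 17.6% rose and 16.4% fell, so the share that fell is near that of all genes. The receptor EPHA2 rose by 0.43 (SE 0.05, limma adjusted p = 0.00176), the pathway inhibitor SPRY4 by 0.30 (SE 0.05, limma adjusted p = 0.00568) and the ERK phosphatase DUSP6 by 0.26 (SE 0.05, limma adjusted p = 0.00763). SPRY1, another inhibitor, fell by 0.35 (SE 0.09, limma adjusted p = 0.0276) and the factor ETV4 by 0.18 (SE 0.06, limma adjusted p = 0.0397). With all 12 libraries in 1 fit, EPHA2 alone kept its call in this list. In COV434-labelled libraries, where 12 were tested with a median of -0.02, the smallest p-values were those of LIF (0.54, SE 0.16, limma adjusted p = 0.353) and DUSP10 (-0.36, SE 0.15, limma adjusted p = 0.613), and neither passed.

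Of 22 upstream factors and kinases, 21 were tested under each label. Under the KGN label, 2 rose (9.52%) and 3 fell (14.3%), both below the shares over all genes. Those that rose were ELK3 (0.43, SE 0.07, limma adjusted p = 0.00467) and ELK4 (0.28, SE 0.09, limma adjusted p = 0.0477), which are partners of SRF. The 3 that fell were SRF itself (-0.25, SE 0.06, limma adjusted p = 0.0186), its coactivator MRTFA (-0.25, SE 0.07, limma adjusted p = 0.0289) and the ERK kinase MAP2K1 (-0.30, SE 0.05, limma adjusted p = 0.00622). With all 12 libraries in 1 fit, of these ELK3 alone was called. Under the COV434 label none of the 21 passed, either at an adjusted or at an unadjusted p under 0.05 (0 genes by limma and 0 by voom on recovered reads).

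Of 18 genes of prostaglandin synthesis, export and reception, which act around PTGS2, 5 were tested under the KGN label and 8 under the COV434 label. Under the KGN label the exporter ABCC4 rose by 0.43 (SE 0.06, limma adjusted p = 0.00261) and the synthase PTGES2 fell by 0.29 (SE 0.05, limma adjusted p = 0.00717), and neither was called with all 12 libraries in 1 fit. In the libraries labelled COV434, PTGS1, the constitutive cyclooxygenase, was at 26.6 ± 3.42 FPKM in untreated and 17.2 ± 2.10 FPKM in treated libraries (-0.60, SE 0.16, limma adjusted p = 0.290). The receptor PTGER4 was at 0.775 ± 0.294 and 1.73 ± 0.158 FPKM (0.63, SE 0.18, limma adjusted p = 0.311), and neither passed. PTGER4 was tested only because its treated libraries brought it past the filter of 1 FPKM.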

How the data were processed

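RNA sequencing libraries of 2 cell lines, untreated or treated with 77-39, were grouped by their titles, since the treatment text also stands on untreated samples. The authors deposited FPKM per gene. The labels' notes name HISAT2 (version 2.0.5) and mouse builds, and their extraction text mentions retinas, but all 58735 gene coordinates match release 29 of GENCODE on human GRCh38. Reads recovered from FPKM and gene length were whole in 100% of values (within 0.05 reads). Strand handling is not given in the sources used here.

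The members and lists were chosen with earlier results of these data known. Each comparison was fitted in limma (version 3.58.1, R 4.3.3; lmFit, eBayes with a trend, two-sided) on log2(FPKM + 1) for the genes that averaged 1 FPKM or more in its libraries, with Benjamini-Hochberg adjustment over all of them. A fold change on this scale understates the change of low genes. Named list genes were, per list, label and direction, up to 3 with the smallest p among those called without overlap, or, where none was called, up to 2 with an unadjusted p under 0.05. The 5 genes most like NR4A1 were ranked by Pearson r, and SIRT3, FOXL2, SMARCA4 and SMARCA2 served as checks. Same-numbered untreated and treated libraries deviated together under the COV434 label (r = 0.400, 0.474 and 0.166) and not under the KGN label (-0.016 to -0.019). Differently numbered COV434 libraries ran from -0.469 to 0.154, the latter for untreated replicate 3 with treated replicate 2. The replicate block rests on this inferred pairing, which the labels do not give. Depth was 15547851 to 18280415 reads, and a count of 0 allows up to 3 reads. Such limits cover counting error only. Scripts were tested on simulated data. The settings tried instead were 0.1 as pseudocount, filtering at 0.1 FPKM or not at all, median-ratio scaling, 1 fit of all 12 libraries, the replicate block, voom on recovered reads and leaving out each library.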

Additional observations from a re-analysis of the deposited data

Results flagged for a closer look

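The change with 77-39 in 2 members had opposite signs under the 2 labels, with no overlap between treated and untreated libraries under either. Such a lack of overlap was common under the KGN label, where 3336 of 12671 genes were higher and 2965 lower in this way. Under the COV434 label 6.23% were higher and 8.16% lower. The log2 changes of NR4A3 differed by 1.72 and those of PTGS2 by 1.49 (KGN minus COV434), and these differences were not tested because the genes were chosen on the COV434 comparison.

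Among the listed genes, a test of the difference between the lines (limma interaction, adjusted p under 0.05) singled out 10. ATF3 differed by 1.79, NFIL3 by 1.44, KLF10 by 1.21, MAFF by 0.89 and DUSP1 by 0.84 on the log2 scale, and each of these 5 stayed past the threshold in all 18 alternatives. BTG2 differed by -0.78 and stayed past it in 15 of 18, BHLHE40 by 0.67 in 9, MAFK by 0.82 in 7, SGK1 by 0.66 in 7 and the exporter ABCC4 by 0.81 in 5.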

How the results depend on the processing

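Under the KGN label, JUN, PTGS2 and JUNB stayed past the threshold in all 15 alternatives (limma adjusted p up to 0.0218, 0.0182 and 0.0172). NR4A3 passes the filter of 1 FPKM only through its treated libraries, so its calls at that filter are not counted. Its limma adjusted p was 0.0203 with the filter at 0.1 FPKM, and 0.0679 at 1 FPKM in 1 fit of all 12 libraries. NR4A2 and EGR1 passed in none. NR4A1, FOS, FOSB and FOSL1 entered only with a filter at 0.1 FPKM or none, and were not called there. With NR4A3 left out, 2 members were called higher and 1 lower at 1 FPKM, also in 1 fit of all 12 libraries. Between untreated lines, NR4A2, JUNB and EGR1 passed in all 13 alternatives and JUN in 2 (adjusted p 0.0241 to 0.224). NR4A3, FOS and FOSL1, which both groups bring past a filter at 0.1 FPKM but not at 1 FPKM, passed in the fit with the former. Voom moved the median of all genes between the lines to -0.18 from 0.02, while the differences of NR4A2 and EGR1 ran from -2.68 to -1.72 and those of JUNB from 1.52 to 1.76. Members with no overlap under the COV434 label numbered 7 to 8 lower and 1 higher without each library in turn.

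Of the listed genes under the KGN label, 16 were higher and 13 lower. With all 12 libraries in 1 fit these were 10 and 0, and lower calls numbered 7 with no filter and 7 with the replicate block, which has no pairing behind it there. Without each library in turn 15 to 18 were called higher and 7 to 16 lower, with 7 lower without untreated replicate 2 or 3 or treated replicate 1 or 2. Under the COV434 label, calls went from 0 to 3 higher and 7 lower in 1 fit of all 12 libraries, to 1 higher and 3 lower with the replicate block, and to 1 higher with voom (also with the filter at 0.1 FPKM, an alternative chosen after seeing the data). At an unadjusted p under 0.05, 4 higher and 13 lower became 12 and 20 in 1 fit of all 12 and 7 higher with the block. Without each library they were 3 to 6 higher and 7 to 13 lower, with 7 lower without untreated replicate 3 and 8 without treated replicate 2. Differences between the lines numbered 5 to 14 without each library: 5 without KGN untreated replicate 2 or treated replicate 1 or 2, and 6 without KGN untreated replicate 3, treated replicate 3 or COV434 treated replicate 2. The cause of these shifts was not tested.

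Over all genes, 1 fit of the 12 libraries called 570 higher and 667 lower under the KGN label, against 2230 and 2077, and 218 and 270 under the COV434 label, against 1 and 4. The replicate block called 39 and 48 under the COV434 label, and voom 12 and 13. With the block under the KGN label, JUN, PTGS2 and JUNB stayed called and NR4A2 and EGR1 stayed uncalled. Under the COV434 label members were not tested, with or without the block.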
